A study of Mus musculus with 8 samples.

Results

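The genes described here build the machinery by which proteins enter the endoplasmic reticulum (ER) and receive their first sugar chains. There are 35 of them among the 22065 named genes of the count table, taken by gene symbol from a list of 5 complexes. The list holds the SEC61 translocon with its partners (7 genes), the translocon-associated protein complex TRAP (4 genes), the signal recognition particle SRP with its receptor (8 genes), signal peptidase (5 genes) and oligosaccharyltransferase, OST (11 genes). All 35 had a row in the table.

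RNA-seq had been done on 8 libraries, each from 100 hematopoietic stem cells (HSCs) sorted from mouse bone marrow as lineage negative, CD48 negative and positive for CD150 and EPCR. In the study, the gate for long-term HSCs also requires CD117 (c-Kit), the product of Kit. The mice were C57BL/6, aged 8 to 10 weeks, and were analysed 1 week after Poly:IC. In the 4 Mitol KO libraries the mice were Mitol Flox/Flox; MX1-cre+ (called Mitol Δ/Δ in the study), and in the 4 control libraries they were Mitol Flox/Flox; MX1-cre- littermates. Both groups carried the floxed alleles and both received Poly:IC, an interferon inducer that switches on the Mx1 promoter and so the Cre. This promoter is not restricted to HSCs, and cells with an interferon response outside the bone marrow can delete the gene as well. Mitol, or Marchf5, encodes a ubiquitin ligase of the outer mitochondrial membrane. Nothing in the labels says that the libraries of a group came from separate mice, so p-values measure the spread between these libraries.

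Signal recognition particle binds the signal sequence of a nascent protein on the ribosome and docks the ribosome at its receptor on the ER membrane. The chain then passes through the SEC61 channel, helped by TRAP, signal peptidase removes the signal sequence, and OST transfers a preassembled sugar chain from the lipid dolichol onto asparagine residues. In blood stem cells, cytokine receptors and adhesion molecules take this route. Many of these genes are known targets of XBP1, a transcription factor of the unfolded protein response (UPR), in secretory cells.

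Library totals overlapped between the groups. Counts on named genes ran from 7214935 to 12398138 per library (Mitol KO against control, exact 2-sided permutation, p = 0.200). The smallest p that 4 libraries against 4 allow in this test is 0.0286. Marchf5 itself had 232 to 308 normalized counts in Mitol KO and 262 to 333 in control libraries (log2 fold change -0.15, edgeR, adjusted p = 0.498). Its total count did not mark the deletion, and counts per gene cannot separate deleted exons from the rest. A normalized count is the read count divided by the size factor of its library, and a log2 fold change compares Mitol KO with control HSCs by edgeR.

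Several genes of ER entry and N-glycosylation rose in Mitol KO HSCs, and none fell. Of 34 genes that passed the expression filter, 6 rose and 0 fell at an adjusted p under 0.05 (quasi-likelihood test of edgeR, Benjamini-Hochberg adjustment over all 16444 genes tested). Over all genes tested, 8.43% passed, with 4.68% higher and 3.75% lower. The 6 were Sec61a1 of the translocon, Ssr1 and Ssr2 of TRAP, and Ddost, Rpn2 and Krtcap2 of OST. The median log2 fold change of the 34 genes was 0.27, against -0.02 over all genes tested. It was positive in 28 of them and negative in 6, where 47.7% of all genes tested were positive. At an unadjusted p under 0.05, 17 were higher and 0 lower, against 13.6% and 12.8% of all genes tested. At an adjusted p under 0.1, 14 were higher, against 8.48% of all genes tested. DESeq2, the tool of the study, gave 13 higher and 0 lower, against 8.19% higher of all genes it tested. Most members are abundant, and abundant genes leaned upward. Between 271 and 1771 normalized counts, the 10th and 90th percentile of the members, 7.25% of 5976 genes rose, 57.5% were positive and the median log2 fold change was 0.05. Of the 6 genes that rose, Ssr1, Ddost and Rpn2 lie above this range, with control means of 1857, 1916 and 2007.

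**Figure D1:**
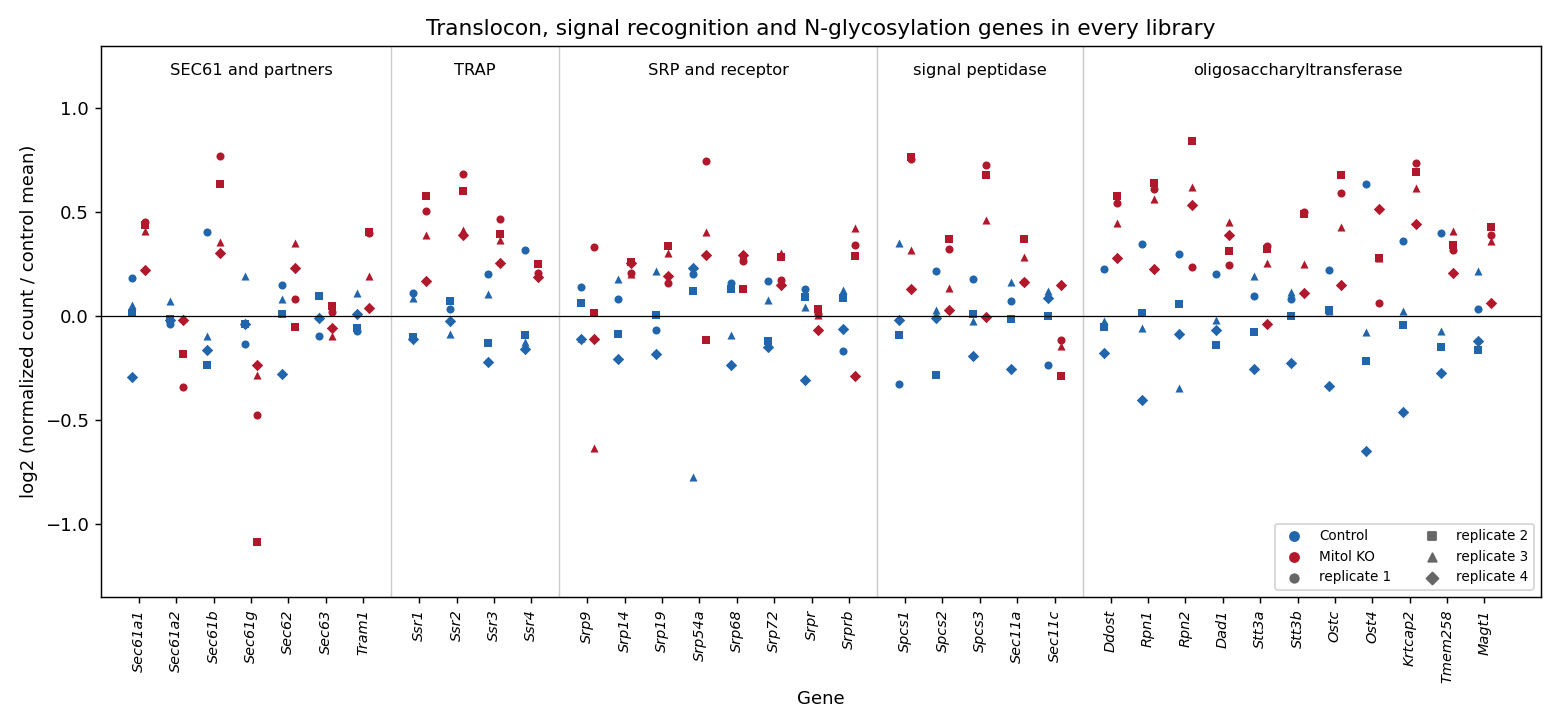
Normalized count of each of the 35 genes in each library, as log2 of its ratio to the control mean, grouped by complex, with control libraries in blue, Mitol KO libraries in red and marker shape for the replicate number. Most red points of TRAP and OST lie above 0, and those of Sec61g lie between -1.09 and -0.23.

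Together the 35 genes took 0.335%, 0.347%, 0.327% and 0.291% of the counts in Mitol KO libraries 1 to 4. The share in control libraries 1 to 4 was 0.290%, 0.268%, 0.274% and 0.257%. The groups did not overlap, but Mitol KO 4 and Control 1 lay next to each other. Within its group, Mitol KO 4 had the lowest normalized count in 22 of the 34 tested genes. Control 4 was the lowest control library in 21 of them, and Control 1 the highest in 20. In a bulk library, more cells with a high level and more RNA in every cell cannot be told apart.

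The number of genes past the threshold rested on single libraries. It was 15 without Mitol KO 4 and 12 without Control 1. It was 1 without Mitol KO 1 or without Mitol KO 3, and 0 without Mitol KO 2, Control 2, Control 3 or Control 4. Of the 6 genes, only Rpn2 was called without Mitol KO 1, only Ssr2 without Mitol KO 3, and all 6 without Mitol KO 4 and without Control 1. The calls over all genes moved as well, from 0.995% higher without Control 2 to 8.77% without Mitol KO 4. The median log2 fold change of the members stayed between 0.22 and 0.34 in these 8 fits, and no member fell in any of them.

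Promoter sequences were read from RefSeq on GRCm38.p6, each from 250 bases before to 50 after a gene's start, for 27 of the 35 genes. The genes without an entry were Sec61a1, Tram1, Ssr2, Srp19, Srp68, Spcs3, Sec11c and Ostc. The ER stress element ERSE, CCAAT and CCACG with 9 bases between them, searched on both strands, was in 0 of the 27, and in 0.186% of tested genes with a promoter. The element ERSE-II, ATTGG and CCACG with 1 base between them, was in 1 of the 27, Krtcap2, and in 0.0838% of tested genes with a promoter and 0.0365% of all promoters of this length. Its parts are common. CCAAT was in 15 of 27 (55.6%) against 42.6% of tested genes, and CCACG in 18 of 27 (66.7%) against 51.1%. The motif TGACGTGG and the motif TGACGTCA were each in 0 of 27, and in 1.04% and 3.40% of tested genes. The motif CACGTG was in 3 of 27 (11.1%), against 11.5% of tested genes. The 4 genes past the threshold that have an entry are shown, because they rose together. Capitals mark CCAAT and CCACG on either strand, and CACGTG. For Ssr1 (chr13:37994209-37994358, minus strand), Ddost (chr4:138304588-138304737, plus strand) and Rpn2 (chr2:157278948-157279097, plus strand, the first of its starts) these are the 150 bases before the start. For Krtcap2 (chr3:89246481-89246510, plus strand) it is the 30-base stretch around its ERSE-II match, bases 18 to 28 after the start at 1 of its starts.
Ssr1: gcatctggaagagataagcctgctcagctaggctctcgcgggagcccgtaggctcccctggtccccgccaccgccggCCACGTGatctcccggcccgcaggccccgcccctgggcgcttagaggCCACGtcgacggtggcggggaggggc
Ddost: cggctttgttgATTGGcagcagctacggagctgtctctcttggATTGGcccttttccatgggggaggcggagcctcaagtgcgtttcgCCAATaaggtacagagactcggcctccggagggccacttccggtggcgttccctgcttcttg
Rpn2: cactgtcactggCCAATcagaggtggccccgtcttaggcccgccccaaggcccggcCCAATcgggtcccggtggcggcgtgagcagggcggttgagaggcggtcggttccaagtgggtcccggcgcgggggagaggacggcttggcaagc
Krtcap2: gggacacggATTGGaCCACGgacggggcgt
The stretch of Ssr1 holds CCACG at 2 places, 1 of them overlapping a CACGTG, and no CCAAT. That of Ddost holds CCAAT 3 times and that of Rpn2 2 times, with no CCACG in either. Past the printed stretch, the Ddost window holds CCACG at bases 18 to 22 and 32 to 36 after the start. The Krtcap2 stretch lies after the start and the others before it. In Krtcap2 both parts stand 1 base apart. A match is a description of letters, and binding was not measured.

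The oligosaccharyltransferase genes all leaned upward. Of 11 genes, 3 rose and 0 fell by edgeR, 7 rose by DESeq2, and all 11 log2 fold changes were positive, with a median of 0.34. Over all genes, 4.68% were higher by edgeR, 8.19% by DESeq2, and 47.7% were positive. In the range of 271 to 1771 normalized counts, 7.25% were higher by edgeR and 57.5% positive. The same shares apply to the counts of the complexes below. Ddost encodes the non-catalytic subunit that holds the complex together with the ribophorins. It lies on chromosome 4 of GRCm39 from 138032018 to 138040859, plus strand. Its normalized counts were 2792, 2864, 2618 and 2327 in Mitol KO libraries 1 to 4 and 2239, 1845, 1886 and 1695 in control libraries 1 to 4. Every Mitol KO library lay above every control library, Mitol KO 4 by the least. The means were 2650.1 ± 239 and 1916 ± 231 (SD, n = 4), a log2 fold change of 0.45 (standard error, SE, 0.10, edgeR, adjusted p = 0.0223). Leaving out single libraries moved the adjusted p between 0.00602 and 0.0740. Pink1 overlaps Ddost on the other strand, and since the kit does not mark strand, reads of the overlap cannot be assigned.

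Rpn2, ribophorin II, lies on chromosome 2 from 157120893 to 157168362, plus strand. It had 2368, 3599.5, 3090.4 and 2902 normalized counts in Mitol KO libraries 1 to 4. Control libraries 1 to 4 had 2468, 2091, 1578 and 1890.3. The groups overlapped, since Mitol KO 1 fell below Control 1. The means were 2989.9 ± 509 and 2007 ± 373 (SD, n = 4), with a log2 fold change of 0.56 (SE 0.15, edgeR, adjusted p = 0.0367). Its partner Rpn1, ribophorin I, missed the threshold at a similar size. It had 1174, 1196, 1136 and 898 normalized counts in Mitol KO libraries and 976, 777, 739 and 580.1 in control libraries. Mitol KO 4 lay below Control 1, and the log2 fold change was 0.51 (SE 0.15, edgeR, adjusted p = 0.0515).

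Krtcap2 had the largest log2 fold change of the 34 genes in the main test. It encodes a small subunit found in OST with STT3A, the form that works on chains still entering the channel. It lies on chromosome 3 from 89151055 to 89157220, plus strand. Its normalized counts were 455, 442, 417 and 371 in Mitol KO and 351, 265, 277 and 198 in control libraries. The groups were separate, with the Mitol KO values close together and the control values spread out. The means were 421 ± 36.7 and 273 ± 62.8 (SD, n = 4), a log2 fold change of 0.62 (SE 0.16, edgeR, adjusted p = 0.0351). Trim46 overlaps this gene on the other strand.

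**Figure D2:**
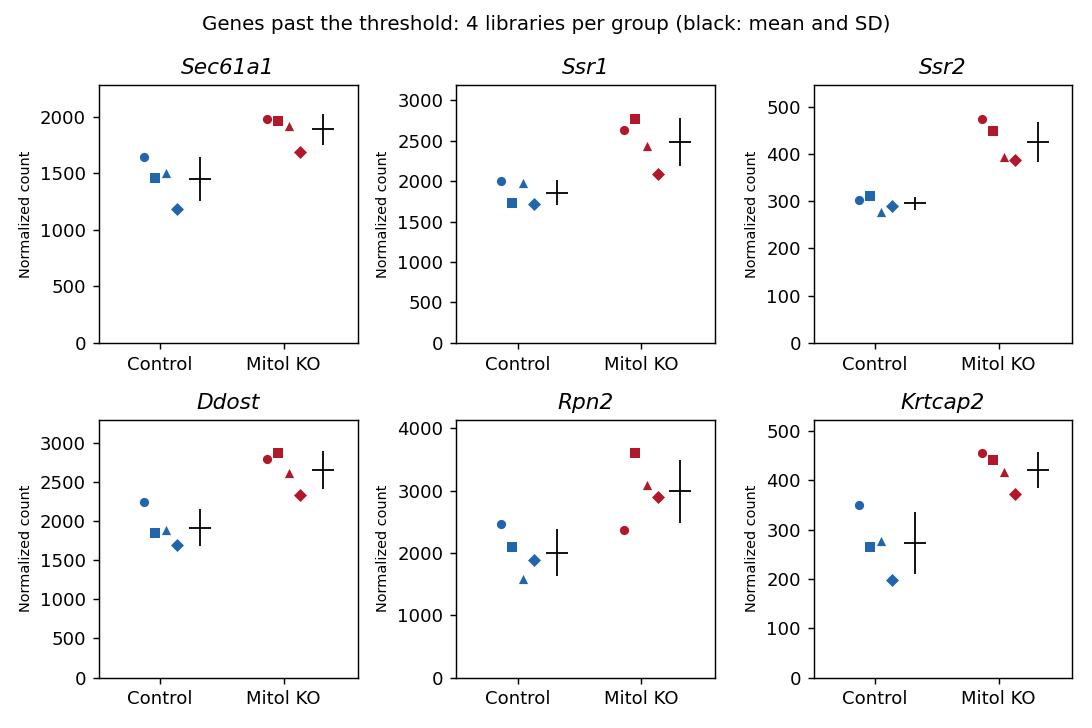
Normalized counts of the 6 genes past the threshold in each of 4 control (blue) and 4 Mitol KO (red) libraries, with marker shapes for replicates 1 (circle), 2 (square), 3 (triangle) and 4 (diamond) and the mean and SD in black. The groups are separate in all but Rpn2, where the lowest Mitol KO library has 2368 and the highest control library 2468.

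Dad1, another shared subunit, had 622, 653, 719 and 687 normalized counts in Mitol KO and 604, 476, 517 and 501 in control libraries. All Mitol KO values were above all control values, with a log2 fold change of 0.34 (SE 0.11) that missed the threshold (edgeR, adjusted p = 0.0674). Of the catalytic subunits, Stt3b, which glycosylates sites that were skipped during entry, had a log2 fold change of 0.33 (edgeR, adjusted p = 0.0773). Its paralog Stt3a had 0.21 (edgeR, adjusted p = 0.268). The log2 ratio of Stt3a to Stt3b was -0.40 ± 0.08 in Mitol KO and -0.28 ± 0.06 in control libraries (SD, n = 4). The difference of -0.11 did not pass (2-sided exact permutation test, p = 0.0857, adjusted over 7 ratios 0.200).

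Ostc, which like Krtcap2 belongs to OST with STT3A, had a log2 fold change of 0.46 (SE 0.15, edgeR, adjusted p = 0.0808). The log2 ratio of Stt3a to Ostc was 1.95, 1.85, 2.03 and 2.02 in Mitol KO and 2.07, 2.09, 2.37 and 2.28 in control libraries. Every Mitol KO ratio lay below every control ratio, and the difference was -0.24 (2-sided exact permutation test, p = 0.0286, the smallest possible, adjusted over 7 ratios 0.1). Magt1, the oxidoreductase of OST with STT3B, had a log2 fold change of 0.30 (edgeR, adjusted p = 0.145). The ratio of Stt3b to Magt1 differed by 0.03 (2-sided exact permutation test, p = 0.83). Tmem258 and Ost4, small membrane subunits, had log2 fold changes of 0.31 and 0.29 (edgeR, adjusted p = 0.209 and 0.5). Ost4 ran from 115 to 158 normalized counts in Mitol KO and from 70 to 171 in control libraries, so both extremes were control libraries. A near-identical copy elsewhere matches 37.8% of the Ost4 transcript, and Agbl5 overlaps Ost4 on the other strand.

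**Figure D3:**
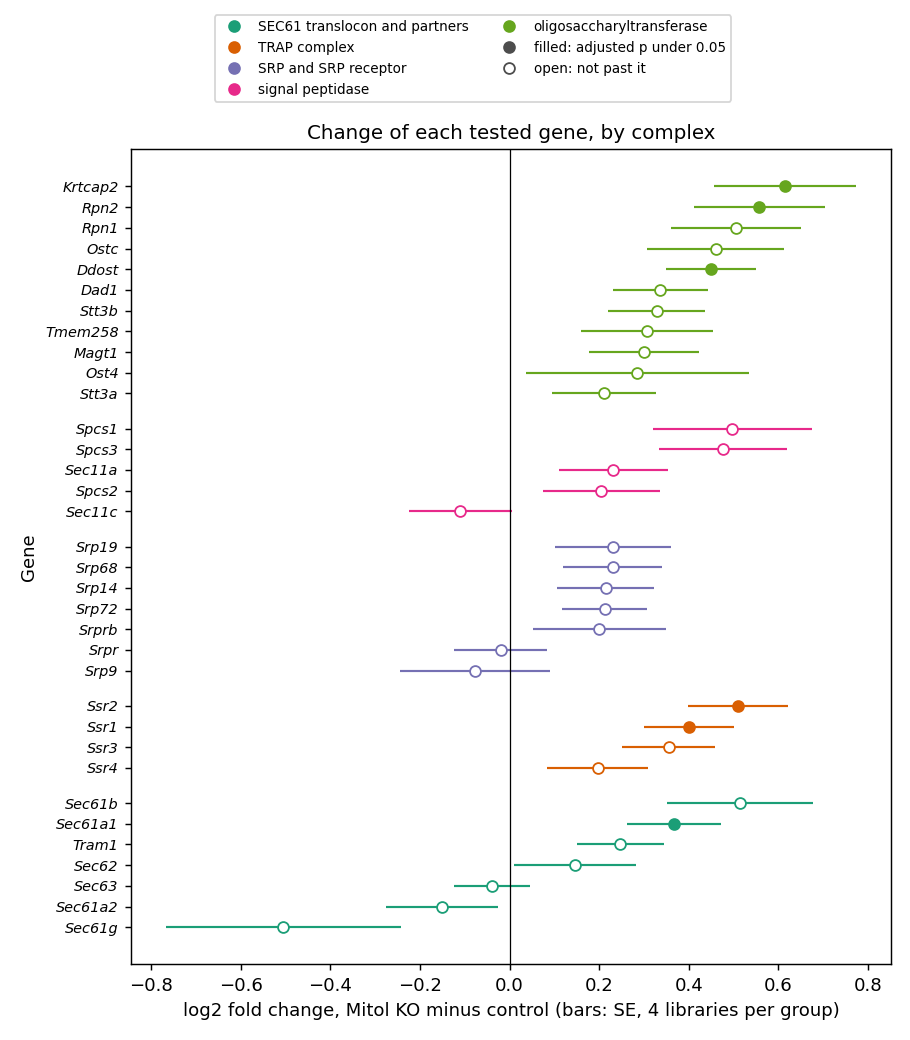
Log2 fold change of each of the 34 tested genes between 4 Mitol KO and 4 control libraries, with standard errors as bars, coloured by complex and filled where the adjusted p was under 0.05. All 11 OST and all 4 TRAP genes are right of 0, and the values run from -0.50 for Sec61g to 0.62 for Krtcap2.

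TRAP, which sits beside the channel and helps weakly recognized signal sequences to enter, had 2 of 4 genes past the threshold by edgeR and 3 by DESeq2. Over all genes, 4.68% were higher by edgeR and 8.19% by DESeq2. The median log2 fold change of the 4 genes was 0.38. Ssr1, the alpha subunit, lies on chromosome 13 from 38149556 to 38178224, minus strand. It had 2638, 2774, 2431 and 2088 normalized counts in Mitol KO and 2003, 1732, 1973 and 1719 in control libraries. The groups were separate, and Mitol KO 4 came closest to the controls. The means were 2483 ± 299 and 1857 ± 152 (SD, n = 4), with a log2 fold change of 0.40 (SE 0.10, edgeR, adjusted p = 0.0323).

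Ssr2, the beta subunit, lies on chromosome 3 from 88483056 to 88497417, plus strand. It had 475, 448, 394 and 387 normalized counts in Mitol KO and 302, 311, 278 and 291 in control libraries. The lowest Mitol KO library was well above the highest control library. The means were 426 ± 42.6 and 295 ± 14.2 (SD, n = 4), a log2 fold change of 0.51 (SE 0.11, edgeR, adjusted p = 0.0208). It had the lowest adjusted p of the members. Without single libraries it ran from 0.00895 to 0.0611. Sequences elsewhere in the genome match 20% of the transcript at 97% identity or more over at least 75 bases, the read length.

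Ssr3, the gamma subunit, had 1626, 1545, 1516 and 1405 normalized counts in Mitol KO and 1354, 1076, 1268 and 1009 in control libraries. The groups were separate, but the log2 fold change of 0.35 (SE 0.10) fell just short of the threshold (edgeR, adjusted p = 0.0532). Ssr4, the delta subunit, ran from 803 to 838 normalized counts in Mitol KO libraries. Control libraries 2 to 4 ran from 632 to 661, and Control 1 stood above all others at 879.6. Its log2 fold change was 0.20 (SE 0.11, edgeR, adjusted p = 0.291). It was past the threshold in only 1 of the 8 fits with a library left out, the one without Control 1. Idh3g and Pdzd4 overlap Ssr4 on the other strand.

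In SEC61 and its partners 1 of 7 genes rose, Sec61a1, and 0 fell. Of the 7, 4 had positive and 3 negative log2 fold changes, and the median was 0.15. Sec61a1 encodes the main form of the channel itself and lies on chromosome 6 from 88480561 to 88495899, minus strand. It had 1985, 1962, 1923 and 1691 normalized counts in Mitol KO and 1646, 1462, 1505 and 1182 in control libraries. The groups were separate, with Mitol KO 4 next to Control 1. The means were 1890.2 ± 135 and 1449 ± 194 (SD, n = 4), with a log2 fold change of 0.37 (SE 0.10, edgeR, adjusted p = 0.0494). With library totals in place of TMM the adjusted p was 0.0594.

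Sec61a2, the minor form of the channel, had 217, 242, 274 and 272 normalized counts in Mitol KO and 268, 272, 289 and 271 in control libraries. The groups overlapped, with a log2 fold change of -0.15 (SE 0.13, edgeR, adjusted p = 0.479). Scaled for transcript length and library total (RPKM), control libraries had 49.4 ± 5.1 of Sec61a1 and 7.83 ± 0.35 of Sec61a2 (SD, n = 4). The log2 ratio of Sec61a1 to Sec61a2 was 3.19, 3.02, 2.81 and 2.63 in Mitol KO and 2.62, 2.42, 2.38 and 2.12 in control libraries. It was higher in every Mitol KO library, by 0.53 on average (2-sided exact permutation test, p = 0.0286, adjusted over 7 ratios 0.1). With 7 ratios this test cannot pass an adjusted threshold of 0.05 unless 5 of them reach the smallest p. The lowest Mitol KO ratio and the highest control ratio differed by less than the SD of either group. Nudt5 overlaps Sec61a2 on the other strand.

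Sec61b, the beta subunit, had 456, 415, 341 and 329 normalized counts in Mitol KO and 353, 227, 249.6 and 238 in control libraries. Control 1 lay among the Mitol KO libraries. The log2 fold change was 0.52 (SE 0.16), past the threshold by DESeq2 (adjusted p = 0.0271) and not by edgeR (adjusted p = 0.0684). Sec61g, the gamma subunit, was the gene with the lowest log2 fold change. It had 38.4, 24.9, 43.9 and 45.5 normalized counts in Mitol KO and 48.8, 52.1, 61.2 and 52.1 in control libraries. Every Mitol KO library was below every control library, the single such case among the tested members, where 7.18% of all genes tested were. Its log2 fold change of -0.50 had a standard error of 0.26 (edgeR, adjusted p = 0.244). Near-identical copies elsewhere in the genome match 38.3% of the Sec61b and 21.1% of the Sec61g transcript, so reads of both could be split.

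Sec62 and Sec63, which open the channel for proteins that enter after translation, had log2 fold changes of 0.15 and -0.04 (edgeR, adjusted p = 0.529 and 0.809). Their log2 ratio differed by 0.18 (2-sided exact permutation test, p = 0.314). Tram1, which helps chains to leave the channel into the membrane, had 1691 to 2181 normalized counts in Mitol KO and 1569 to 1780.3 in control libraries. Its log2 fold change was 0.25 (edgeR, adjusted p = 0.127).

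**Figure D4:**
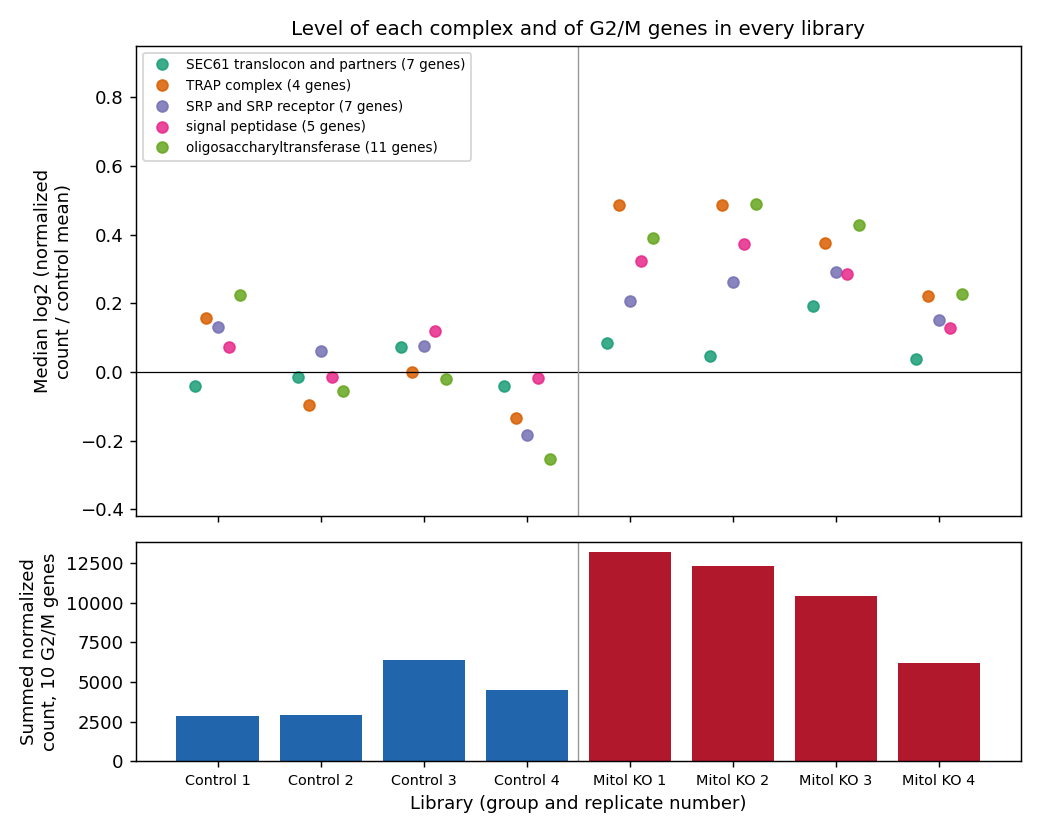
Upper panel, the median over the genes of each complex of log2 normalized count relative to the control mean, in each of the 4 control and 4 Mitol KO libraries. Lower panel, the summed normalized count of 10 genes of the G2/M phase in the same libraries, from 2892 in Control 1 to 13170 in Mitol KO 1, with 6202 in Mitol KO 4 and 6388 in Control 3.

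Signal recognition particle and its receptor had no gene past the threshold by edgeR (1 at an unadjusted p under 0.05, Srp72) or by DESeq2. Of 7 tested genes 5 had positive log2 fold changes, and the median was 0.21. Srp68 and Srp72, the pair that binds the RNA scaffold of the particle, had log2 fold changes of 0.23 and 0.21 (edgeR, adjusted p = 0.207 and 0.179). Srp19, needed to assemble the particle, had 0.23 (edgeR, adjusted p = 0.279). Srp14, which with Srp9 slows elongation by the ribosome, had 513, 533, 512 and 531 normalized counts in Mitol KO and 471, 419, 503 and 385 in control libraries. The Mitol KO values lay within a narrow band just above the highest control library, with a log2 fold change of 0.21 (SE 0.11, edgeR, adjusted p = 0.229). Eif2ak4 overlaps Srp14 on the other strand.

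Srp9 had 619, 496, 317 and 455 normalized counts in Mitol KO libraries, an SD of 125, and 454 to 542 in control libraries. Its log2 fold change of -0.08 (edgeR, adjusted p = 0.814) turned to 0.09 without Mitol KO 3. A near-identical copy matches 35.5% of its transcript. The receptor subunits Srpr, a GTPase, and Srprb, its membrane anchor, had log2 fold changes of -0.02 and 0.20 (edgeR, adjusted p = 0.927 and 0.422). A copy elsewhere matches 72.8% of the Srpr transcript. Their log2 ratio differed by -0.19 (2-sided exact permutation test, p = 0.314). Srp54a, the subunit that reads the signal sequence, had 3.77 to 11.7 normalized counts over all libraries and failed the filter. Copies match 91.9% of its transcript, so its reads could be lost or split between copies. Without the filter its adjusted p was 0.726.

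Signal peptidase had no gene past the threshold by edgeR (2 at an unadjusted p under 0.05) and 1, Spcs3, by DESeq2. Of 5 genes, 4 had positive log2 fold changes, with a median of 0.23. The accessory subunits Spcs1 and Spcs3 had the largest, 0.50 and 0.48 (standard errors 0.18 and 0.14, edgeR, adjusted p = 0.0995 and 0.0591). Near-identical copies elsewhere match 19.3% of the Spcs1 transcript, and Glt8d1 overlaps Spcs1 on the other strand. Spcs3 had 1707, 1649, 1421 and 1027 normalized counts in Mitol KO and 1168, 1039.6, 1014 and 903 in control libraries. Mitol KO 4 lay among the controls and the other Mitol KO libraries above them. Spcs2 had a log2 fold change of 0.21 (edgeR, adjusted p = 0.343).

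The catalytic subunits of signal peptidase, Sec11a and Sec11c, are paralogs that occupy the same place. Sec11a had 348, 400.1, 377 and 347 normalized counts in Mitol KO and 326, 306, 347 and 259.5 in control libraries. The groups met near 347 without overlapping, with a log2 fold change of 0.23 (SE 0.12, edgeR, adjusted p = 0.250). Sec11c had a log2 fold change of -0.11 (edgeR, adjusted p = 0.583). On the same RPKM scale, Sec11c had 124 ± 16 and Sec11a 25 ± 2.3 in control libraries (SD, n = 4). The log2 ratio of Sec11a to Sec11c was -1.31 ± 0.27 in Mitol KO and -1.66 ± 0.27 in control libraries (2-sided exact permutation test, p = 0.143, adjusted over 7 ratios 0.250).

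Across the complexes, 9 of the 34 tested genes had all Mitol KO libraries above all control libraries, where 8.17% of all genes tested did. They were Sec61a1, Ssr1, Ssr2, Ssr3, Srp14, Sec11a, Ddost, Dad1 and Krtcap2. In the range of 271 to 1771 normalized counts, 12.5% of all genes did. The median of each complex per library was also compared. For TRAP it lay between 0.22 and 0.49 in Mitol KO and between -0.13 and 0.16 in control libraries, on the log2 scale relative to the control mean. For OST it lay between 0.23 and 0.49 in Mitol KO and between -0.25 and 0.22 in control libraries. For SRP with its receptor it lay between 0.15 and 0.29 in Mitol KO and between -0.18 and 0.13 in control libraries. For signal peptidase it lay between 0.13 and 0.37 in Mitol KO and between -0.02 and 0.12 in control libraries. On this median these 4 complexes had separate groups, including SRP and signal peptidase, which had no gene past the threshold by edgeR. For SEC61 and its partners the groups overlapped, from 0.04 to 0.19 and from -0.04 to 0.07. As a percentage of library counts, SRP with its receptor overlapped, at 0.0448 to 0.0494 in Mitol KO and 0.0418 to 0.0470 in control libraries. Signal peptidase overlapped too, at 0.0323 to 0.0402 and 0.0313 to 0.0339. TRAP stayed separate at 0.0480 to 0.0576 and 0.0411 to 0.0477, and OST at 0.1122 to 0.1388 and 0.0892 to 0.1107. How often other gene sets separate was not computed. The differences between complexes were not tested.

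**Figure D5:**
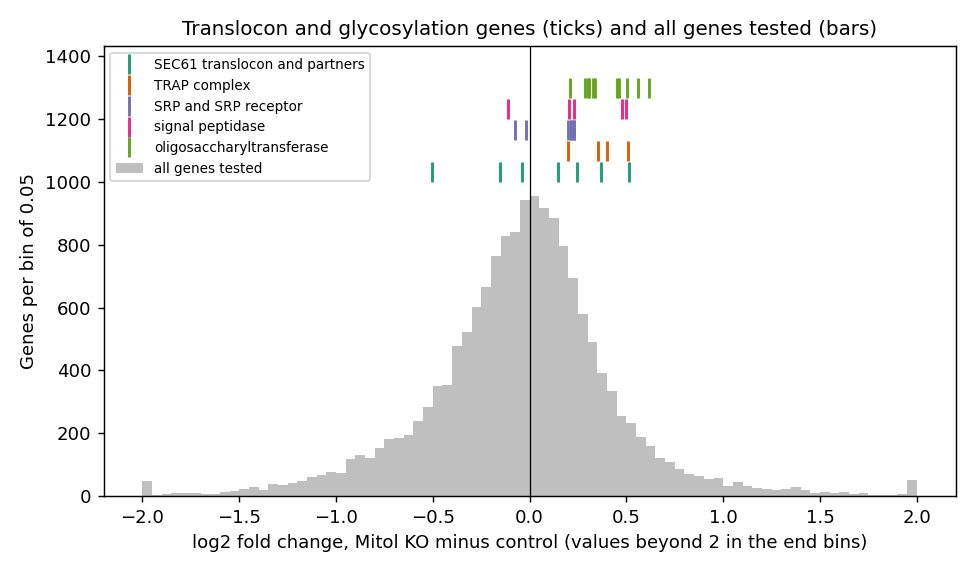
Log2 fold changes of the 34 tested genes as ticks, coloured by complex, above a histogram of the log2 fold changes of all 16444 genes tested, in bins of 0.05. The ticks of TRAP and OST lie to the right of 0, where the bulk of all genes is centred with a median of -0.02.

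Other genes of these routes were read from a wider list. Of 74 listed genes in the table, 5 rose and 0 fell by edgeR, where 4.68% of all genes tested and 7.25% in the range of 271 to 1771 normalized counts rose. By DESeq2 10 rose and 0 fell, against 8.19% higher of all genes it tested. At an unadjusted p under 0.05, 19 were higher and 2 lower, against 13.6% and 12.8% of all genes tested. The median log2 fold change of the 74 was 0.12, with 49 positive and 25 negative, where 47.7% of all genes tested were positive. Among 29 genes that build the dolichol-linked sugar, the donor used by OST, 3 rose. These were Alg3, a mannosyltransferase, with a log2 fold change of 0.61 (SE 0.14, edgeR, adjusted p = 0.0275), Alg8, a glucosyltransferase, with 0.74 (SE 0.16, edgeR, adjusted p = 0.0207), and Mpi, mannose phosphate isomerase, with 0.59 (SE 0.14, edgeR, adjusted p = 0.0271). Each had all 4 Mitol KO libraries above the controls, as 8.17% of all genes tested did. The median of the 29 genes was 0.04, with 18 positive and 11 negative.

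Of 11 genes of glycan trimming and the calnexin cycle 1 rose, Mogs, the glucosidase that makes the first cut in the transferred sugar. Its log2 fold change was 0.60 (SE 0.15, edgeR, adjusted p = 0.0316), with 3 of 4 Mitol KO libraries above the controls. Of 25 genes of other insertion routes 1 rose, Tmco1, a subunit of the translocon form that inserts proteins with many membrane spans. It had 670.0, 674, 677 and 574 normalized counts in Mitol KO and 464, 445, 438 and 461 in control libraries. The groups were far apart, with a log2 fold change of 0.50 (SE 0.10, edgeR, adjusted p = 0.0144), and it was called in all 8 fits with a library left out. None of 9 further genes of the translocon, SRP and OST passed by edgeR (3 at an unadjusted p under 0.05), and 1 did by DESeq2. The number that rose among the 74 was 14 without Mitol KO 4, 8 without Control 1, 3 without Control 3, and 2 without Mitol KO 3 or Control 2. It was 1, Tmco1, without Mitol KO 1, Mitol KO 2 or Control 4.

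Regulators of the UPR, which control many ER genes, did not move in 1 direction. Of 8 sensors and transcription factors, Xbp1 rose and Ern1, the sensor that splices Xbp1 mRNA, fell. Xbp1 had 1208, 2006, 2335 and 1772 normalized counts in Mitol KO and 1001, 939.6, 1348 and 603 in control libraries. Mitol KO 1 lay below Control 3, and the log2 fold change was 0.90 (SE 0.23, edgeR, adjusted p = 0.0346). Counts per gene do not separate spliced from unspliced Xbp1. Ern1 had 1953, 2052, 2186 and 2383 normalized counts in Mitol KO and 2647, 2724, 2786 and 2684 in control libraries. The groups were separate, with a log2 fold change of -0.36 (SE 0.08, edgeR, adjusted p = 0.0264). With a library left out, Xbp1 was called without Mitol KO 1, Mitol KO 4 or Control 3 and had an adjusted p of up to 0.0928 in the other fits. Ern1 was called without Mitol KO 4 or Control 1 and had an adjusted p of up to 0.0786 in the other fits. Atf6 had a log2 fold change of 0.29 (edgeR, adjusted p = 0.115), Eif2ak3, which encodes PERK, 0.03, Atf4 -0.18, Ddit3 -0.30, Creb3 -0.10 and Creb3l2 0.09, all short of the threshold.

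Markers of other cells were read beside these results, since plasma cells and other secretory cells are rich in translocon and OST mRNA. Of 8 plasma cell genes 6 are in the table, with Mzb1 at 0 to 8.51, Jchain at 1.04 to 23.7 and Ighm at 0 to 7.18 normalized counts over all libraries. Their sum was 111 to 262 in Mitol KO and 112 to 168 in control libraries. Its most abundant gene, Sdc1, had 90.6 to 235 normalized counts in Mitol KO and 60.2 to 100.2 in control libraries. Its log2 fold change of 0.93 passed by DESeq2 (adjusted p = 0.016) and with the replicate block (adjusted p = 0.0397). It did not pass by edgeR without the block (adjusted p = 0.0586). Of the 3 plasma cell genes tested, the other 2, Prdm1 and Irf4, went the other way. Their log2 fold changes were -1.58 and -0.25 (edgeR, adjusted p = 0.105 and 0.794). Of 10 myeloid granule genes 8 are in the table, with sums of 485 to 1023 in Mitol KO and 405 to 616 in control libraries, mostly Prtn3. Mpo and Elane, which define granulocyte precursors, were at 0 to 12.8. S100a8 and S100a9, genes of mature granulocytes, lay lower in Mitol KO, at 0 to 1.57 and 0 normalized counts against 0 to 51.2 and 2.64 to 21.3 in control libraries. Both were below the expression filter of edgeR, and S100a8 fell by DESeq2 (adjusted p = 0.0284). Prtn3 went the other way, with 462 to 1006 normalized counts in Mitol KO and 332 to 566 in control libraries. Its log2 fold change of 0.76 passed by DESeq2 (adjusted p = 0.0150) and not by edgeR (adjusted p = 0.0674). Of 8 erythroid genes all were in the table, with sums of 831 to 4633 in Mitol KO and 182 to 637 in control libraries, the highest in Mitol KO 3. Of the HSC genes, Kit had 6061 to 8386 normalized counts in Mitol KO and 10221 to 13429 in control libraries, and Hlf had 4609 to 5968 and 8459 to 10810.0. Both fell, without overlap between the groups (log2 fold changes -0.75 and -0.79, edgeR, adjusted p = 0.00705 and 0.00381). Both groups held abundant HSC transcripts.

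Genes of the G2/M phase also rose in Mitol KO HSCs. Of 10 such genes all 10 rose by edgeR, where 4.68% of all genes tested did. Their median log2 fold change was 1.6. Their summed normalized counts were 13170, 12320, 10400 and 6202 in Mitol KO libraries 1 to 4 and 2892, 2906, 6388 and 4484 in control libraries 1 to 4. Mitol KO 4, which had the lowest level of most members in its group, also had the lowest G2/M sum there. Among controls the order differed, since Control 1 had the highest level of most members and the lowest G2/M sum. The part of the G2/M, erythroid and HSC genes in the rise of the members was not tested, and neither was that of the plasma cell and myeloid genes.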

How the data were processed

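Libraries were made from 100 sorted HSCs each with not-so-random primers and a Nextera XT kit, which does not mark strand, and read single-end at 75 bases. Per the labels and methods, the authors aligned reads to mm39 with STAR, merged the alignments (samtools) and took the number of reads on each gene (subread). The annotation and strand setting of the counting are not given in the sources used here. The authors deposited raw counts per gene. Of 23094 rows, 1029 carry no symbol (0.335% to 0.467% of counts) and were left out. Each row sums to at least 11.

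The members and gene lists were chosen with earlier results of these data known. Members were tested with edgeR 4.0.16 (quasi-likelihood, TMM, filterByExpr, adjusted p under 0.05 over 16444 genes). Normalized counts used size factors of DESeq2 1.42.0. The 7 log2 ratios between members used normalized counts plus 0.5 and exact permutation over 70 arrangements. Levels per length (RPKM) used the median length of a gene's CCDS transcripts. Positions came from GENCODE vM39 (GRCm39), with Srpr found there as Srpra, and near-identical copies from blastn 2.17.0. Values are given per library for members past the threshold, with separate groups, and for Sec61a1 and Sec61b. Some members close to these were given likewise after their values were seen. Genes named from the wider list are those past the threshold. All UPR regulators are named, and cell markers are named in part, whether past the threshold or not. Lists of B lineage, T cell, mast cell and basophil and megakaryocyte markers were also read and are not described. Some HSC marker results are not reported here. Alternatives were normalization, filter, DESeq2, limma-voom (limma 3.58.1), a replicate block, a threshold of 0.1, a pseudocount of 5 and leaving out each library. The fits were tested on simulated counts. No molecular identifiers were used, so reads are not independent molecules, and 4 libraries per group of 100 cells limit precision.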

Additional observations from a re-analysis of the deposited data

Results flagged for a closer look

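Among 70 groups of 4 libraries, 1 for each of the 35 genes in each condition, 2 held a library far from the other 3, where chance gives about 1 in 20. Ssr4, the delta subunit of TRAP, had 879.6 normalized counts in Control 1, against 632 to 661 in the other control libraries, and Control 1 was also the highest control library in 20 of the 34 tested genes. Srp54a, the signal-binding subunit of SRP, had 3.77 normalized counts in Control 3, against 7.45 to 8.08 in the other control libraries, a level set by a few reads.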

How the results depend on the processing

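The number of members higher in Mitol KO HSCs was 6, between 5 and 8 with other normalizations, filters or limma-voom, 13 with DESeq2, 11 with the replicate block and 14 at an adjusted p under 0.1. Leaving out single libraries gave 0 to 15. Over all genes, the share higher was 4.68% in the main fit and 3.47% to 6.36% with other normalizations, filters or limma-voom. It was 8.19% with DESeq2, 5.82% with the replicate block, 8.48% at an adjusted p under 0.1 and 0.995% to 8.77% with a library left out. Of the wider list 5 were higher, 10 with DESeq2, 10 at an adjusted p under 0.1, and 1 to 14 with a library left out. In that list 0 were lower, and 1 with library totals, with the stricter filter or at 0.1. With group means removed, same-numbered libraries correlated at 0.08, -0.07, 0.05 and 0.07, and other pairs at -0.13 to 0.10. These values do not settle whether the replicate numbers pair the libraries, so the block rests on a number alone. Under it the ratios cannot go below p = 0.125 by the exact test, and no ratio passed in any setting. Single values that changed sign were all small. Srp9 moved from -0.08 to 0.090 without Mitol KO 3, and ran from -0.23 to 0.09 with a library left out. Srpr moved from -0.02 to 0.0037 without a filter and to 0.020, 0.040 and 0.012 without Mitol KO 4, Control 1 and Control 2, and ran from -0.11 to 0.04. The ratio of Stt3b to Magt1 moved from 0.03 to -0.0027, -0.0099 and -0.0099 without Mitol KO 1, Control 3 and Control 4, and ran from -0.0099 to 0.0794. Over the log2 fold changes of the tested members, alternatives with all libraries left 217 values on their side, took 18 past the threshold and made 1 miss it. With a library left out, 219 stayed, 34 lost the threshold and 15 gained it. The causes were not tested. No normalization moved the median of all genes by more than 0.08 on the log2 scale. Srp54a failed the filter and had an adjusted p of 0.726 without it.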
